A study of Mus musculus with 24 samples.

Results

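The Gadd45 family of the mouse holds Gadd45a, Gadd45b and Gadd45g, and its transcripts were followed in primary embryonic fibroblasts that met stress of the endoplasmic reticulum (ER) with or without the transcription factor CHOP. Every probe set that the array's probe-to-gene table assigns to these genes was taken, which gave 3 genes of 8251 named on the array and 4 of its 12488 probe sets. Gadd45a had 1 probe set (102292_at), Gadd45b had 2 (102779_at and 161666_f_at) and Gadd45g had 1 (101979_at). In the naming of such probe sets the letter f marks probes that can be shared by similar sequences, so both Gadd45b probe sets are given throughout and neither stands for the other.

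GADD45 proteins are small acidic proteins made in response to DNA damage and other stresses. They bind and activate the kinase MAP3K4 upstream of p38 and JNK, bind the replication clamp PCNA and the mitotic kinase CDK1, and are known for slowing cells before mitosis and for a part in DNA repair and demethylation. Gadd45a is a textbook target of p53, Gadd45b was first described as a myeloid differentiation gene and is induced by NF-kappaB and TGF-beta, and Gadd45g is induced by cytokines.

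The cells were CHOP-/- or wild type. Ddit3 encodes CHOP, which is induced through the kinase PERK when proteins misfold in the ER. Each genotype was measured untreated and after 4 h or 8 h of tunicamycin, an inhibitor of N-glycosylation that loads the ER with unfolded protein, at 2 µg/ml. There were 6 groups and 24 arrays, 4 in a group, which carry the letters A, B, C and D. A passage, 3, is given for the untreated wild type arrays A, B and C and for no other array. The labels name neither a solvent control nor a time for the untreated cells, so a change with tunicamycin cannot be told apart from one with time or handling. No label states whether arrays of the same group stem from separate cultures or embryos, so the p-values reflect the spread among these arrays, which may be technical. The comparisons ask whether tunicamycin moved each Gadd45 transcript and whether that depended on CHOP.

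The stretch around each gene's start, 250 bases before it to 50 after it, is shown because all 3 genes rose in CHOP-/- cells at 8 h. The sequences are those of RefSeq for GRCm38.p6, written 5′ to 3′ on the strand of the gene. They are chr6:67037358-67037657 on the minus strand for Gadd45a, chr10:80929841-80930140 on the plus strand for Gadd45b and chr13:51846425-51846724 on the plus strand for Gadd45g. Capitals mark each match to the motifs named after the sequences.
Gadd45a: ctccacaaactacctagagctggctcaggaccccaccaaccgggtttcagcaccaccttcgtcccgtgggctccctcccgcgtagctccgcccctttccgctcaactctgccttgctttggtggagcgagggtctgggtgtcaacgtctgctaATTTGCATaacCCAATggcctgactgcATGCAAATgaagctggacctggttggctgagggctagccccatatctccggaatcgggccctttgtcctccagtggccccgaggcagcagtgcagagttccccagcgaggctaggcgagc
Gadd45b: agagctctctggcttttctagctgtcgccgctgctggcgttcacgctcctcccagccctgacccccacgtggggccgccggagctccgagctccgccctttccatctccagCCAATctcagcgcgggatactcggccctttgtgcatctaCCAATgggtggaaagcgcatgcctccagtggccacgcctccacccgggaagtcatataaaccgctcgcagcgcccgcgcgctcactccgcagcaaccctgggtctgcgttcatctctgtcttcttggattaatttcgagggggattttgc
Gadd45g: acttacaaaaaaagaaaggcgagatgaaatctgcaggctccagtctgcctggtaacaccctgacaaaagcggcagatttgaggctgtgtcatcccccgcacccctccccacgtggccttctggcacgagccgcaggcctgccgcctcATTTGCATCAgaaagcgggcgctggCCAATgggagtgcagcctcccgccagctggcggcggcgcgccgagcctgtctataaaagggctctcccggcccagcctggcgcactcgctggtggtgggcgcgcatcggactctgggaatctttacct

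A CCAAT box (CCAAT) was present in all 3 windows, and in 37.4% of the 32851 promoters of the same length. It began 86 bases before the start of Gadd45a, 139 and 100 bases before that of Gadd45b, and 78 bases before that of Gadd45g. The octamer motif ATGCAAAT, added to the search after the sequences had been seen, occurred in 1.74% of promoters. Gadd45a held 2 copies in opposite orientations, around its CCAAT box, and Gadd45g held 1. Of the motifs bound by stress factors, the composite site of C/EBP and ATF proteins (TGATGNAAN), a kind of site that CHOP and ATF4 can bind, matched only in the Gadd45g window, where it overlapped the octamer, and in 3.95% of all promoters. Both strands were searched, and no match was found in the 3 windows for the cyclic AMP response element (TGACGTCA), the AP-1 site (TGANTCA), the unfolded protein response element (TGACGTGG), the ER stress element or an NF-kappaB site, which occurred in 1.79%, 7.81%, 0.676%, 0.119% and 0.411% of all promoters. The windows held 61.0% to 62.3% G and C, against a median of 52.7% over all promoters.

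Ddit3 checked the genotype labels. Its signal lay between 6.9 and 40.4 on the 12 CHOP-/- arrays, against 215.5 to 437 in untreated wild type cells, 2773.9 to 4396.6 at 4 h and 3857 to 4883 at 8 h, and the genotypes did not overlap. The trimmed mean signal, 250.1 to 250.2, was nearly equal on all arrays. Scaling to a common value would make it so, and it therefore cannot speak to array quality. Median signals ranged from 48.2 to 72.6. Ratios of 3′ to 5′ signal lay between 0.752 and 0.852 at Gapdh, while those of actin spanned 0.948 to 1.24. Of 14 fibroblast markers on the array, 13 lay above the filter on mean signal (the 40th percentile of probe sets), collagen genes among them. The exception was vimentin, whose probe set read 8.4 to 41.1. Markers of leukocytes, 6 of 10 above the filter, set 6 arrays apart. Their summed signal was 466.5 to 1662 on the CHOP-/- arrays, against 2277 to 4634 on wild type arrays A and B and 519.4 to 936.2 on wild type arrays C and D. Lyz2, the lysozyme of macrophages, read 633.5 to 1563.4 on those 6 arrays. The calls of Gadd45 probe sets that rest on wild type arrays, and several list counts, are therefore also given without A and B. Where no such value is printed, the result is that of all arrays and is not shown to hold without A and B. Such fits have fewer wild type arrays, and fewer probe sets passed in the wild type responses whichever pair was left out. At 8 h 1123 probe sets were called in wild type cells, 341 without A and B and 303 without C and D. Whether a call lost without A and B was lost through fewer arrays or through these markers was not tested. In bulk RNA, fewer cells of a type and less RNA per cell cannot be told apart.

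Gadd45a had the largest response of the family and rose in both genotypes. In CHOP-/- cells its signals on arrays A to D were 184, 312.6, 198.4 and 366.8 untreated, 1277.3, 1350.7, 671.3 and 844.2 at 4 h, and 1765.7, 1571.3, 1432.7 and 1610.5 at 8 h. Wild type cells gave 310.7, 292.4, 500.8 and 274.5 untreated, 1558.9, 1867.7, 1420.2 and 2086.1 at 4 h, and 1878.6, 1792.1, 1722.2 and 2126 at 8 h. Every treated array lay above every untreated array of its genotype. In wild type cells the 4 h and 8 h arrays overlapped, whereas in CHOP-/- cells all 8 h arrays lay above all 4 h arrays. On the log2(signal + 5.7) scale, which understates changes of low signals, the rise in CHOP-/- cells was 1.97 ± 0.23 (standard error, SE) at 4 h (3.92-fold, adjusted p = 1.07e-05) and 2.64 ± 0.23 at 8 h (6.23-fold, adjusted p = 3.89e-08). In wild type cells it was 2.33 ± 0.23 at 4 h (5.04-fold, adjusted p = 5.24e-07) and 2.46 ± 0.23 at 8 h (5.49-fold, adjusted p = 7.45e-08). All adjusted p-values are from a limma fit over 7453 probe sets with the Benjamini-Hochberg method. Among those probe sets the rise ranked 4 (4 h) and 11 (8 h) in CHOP-/- cells, and 7 (4 h) and 11 (8 h) in wild type cells.

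The 8 h response of Gadd45a in CHOP-/- cells exceeded the 4 h response by 0.67 ± 0.23 on the log2 scale, which did not pass the threshold (adjusted p = 0.096). The same difference in wild type cells was 0.12 (adjusted p = 0.909). No Gadd45 probe set passed between 8 h and 4 h in either genotype, where 5% of all probe sets were called in CHOP-/- cells and 3.61% in wild type cells. Between genotypes Gadd45a averaged 265.4 ± 88.7 in CHOP-/- cells and 344.6 ± 105 in wild type cells untreated (SD, n = 4 each). At 4 h the means were 1036 ± 330 in CHOP-/- cells and 1733 ± 301 in wild type cells, and at 8 h they were 1595 ± 137 in CHOP-/- cells and 1880 ± 176 in wild type cells. The mean was thus below that of wild type cells at all 3 times, with log2 differences of -0.42 (adjusted p = 0.632), -0.78 (95% interval -1.26 to -0.30, adjusted p = 0.0822) and -0.24 (adjusted p = 0.72), none of which passed. At 4 h the deposited signals of the genotypes did not overlap, while after quantile normalization CHOP-/- array B (10.41 on the log2 scale) lay just above wild type array C (10.40), and an exact permutation test (two-sided) gave p = 0.0571. Without the 4 h CHOP-/- array B both near misses passed, with 0.81 for 8 h against 4 h (adjusted p = 0.047) and -0.92 for the genotypes at 4 h (adjusted p = 0.0473). Neither passed under the other alternatives. Their highest adjusted p was 0.371 for 8 h against 4 h and 0.389 for the genotypes at 4 h. The 4 tunicamycin responses of Gadd45a passed under every alternative run, without wild type arrays A and B included (2.15 at 4 h and 2.33 at 8 h).

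Gadd45b rose at both times in CHOP-/- cells on both of its probe sets. At 102779_at the CHOP-/- signals on arrays A to D were 361, 307.4, 602.9 and 419.5 untreated, 997.7, 1291.3, 615.1 and 767.1 at 4 h, and 985.5, 870.4, 1168.8 and 879.6 at 8 h. Wild type signals were 311.2, 399.5, 487.3 and 410 untreated, 589.4, 611.6, 934 and 927.9 at 4 h, and 467.4, 553.7, 600.4 and 633.5 at 8 h. Treated CHOP-/- arrays stayed clear of the untreated ones, with the 4 h array C only just above the untreated array C. Wild type 4 h arrays also stayed clear, while the 8 h array A fell among the untreated arrays. The log2 rise in CHOP-/- cells was 1.13 ± 0.22 at 4 h (2.19-fold, adjusted p = 0.00758) and 1.23 ± 0.22 at 8 h (2.35-fold, adjusted p = 0.000464). Wild type cells rose by 0.87 ± 0.22 at 4 h (1.83-fold, adjusted p = 0.0387), and their difference of 0.47 ± 0.22 at 8 h did not pass (adjusted p = 0.167). With the array letter as a block, fitted on the 2 groups alone, that 8 h difference passed (adjusted p = 0.0111), and it did not in the blocked fit of all arrays (adjusted p = 0.141).

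The other Gadd45b probe set, 161666_f_at, followed the same order of groups within each genotype. Its CHOP-/- signals were 389.9, 382.7, 596 and 796.4 untreated, 1343.6, 1905.3, 872.7 and 1131.4 at 4 h, and 1707.3, 1291.7, 2399.2 and 2046.4 at 8 h. Wild type signals were 384.4, 481.1, 983.5 and 451.6 untreated, 869.3, 1146.9, 1888.1 and 1479.2 at 4 h, and 707.9, 942.1, 1077.8 and 1147.8 at 8 h. In CHOP-/- cells treated and untreated arrays did not overlap at either time. The untreated wild type array C lay above 1 of the 4 h arrays and above 2 of the 8 h arrays. CHOP-/- cells rose by 1.31 ± 0.29 at 4 h (2.48-fold, adjusted p = 0.0229) and by 1.82 ± 0.29 at 8 h (3.54-fold, adjusted p = 0.000161). Wild type cells rose by 1.24 ± 0.29 at 4 h (2.37-fold, adjusted p = 0.0247), and the 8 h difference of 0.81 ± 0.29 missed the threshold (adjusted p = 0.0652). That 8 h difference passed with the array letter as a block (adjusted p = 0.0333), without the untreated wild type array C (1.09, adjusted p = 0.0122) and without the 8 h wild type array A (0.95, adjusted p = 0.0498).

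The 4 h calls of Gadd45b were less firm than those at 8 h in CHOP-/- cells. The wild type rise at 4 h no longer passed without the untreated array A, B or D or the 4 h array C or D, with log2 values of 0.74 to 0.89 at 102779_at (adjusted p 0.0761 to 0.17) and 1.08 to 1.21 at 161666_f_at (adjusted p 0.0683 to 0.123). Without wild type arrays A and B it was 1.02 (adjusted p = 0.365) and 1.28 (adjusted p = 0.414) at these probe sets. These values are not below those of all arrays (0.87 and 1.24), but fewer arrays were fitted. In CHOP-/- cells the 4 h rise at 161666_f_at was lost without the untreated array A or B or the 4 h array A or B, at 1.11 to 1.29 (adjusted p 0.0556 to 0.0936).

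Gadd45g rose in CHOP-/- cells at 8 h, and its other differences from untreated cells did not pass. Its CHOP-/- signals on arrays A to D were 1016.8, 1231.3, 1373.9 and 1630.3 untreated, 2430.8, 3348.4, 1030.8 and 1633.6 at 4 h, and 2406.7, 2086.8, 3013.2 and 2567.6 at 8 h. Wild type signals were 1388.7, 1031.8, 1885 and 1238.2 untreated, 1582.6, 1446, 1893.8 and 2328.7 at 4 h, and 1074.2, 975, 1407.5 and 1506.9 at 8 h. All 8 h CHOP-/- arrays lay above all untreated CHOP-/- arrays. At 4 h, CHOP-/- arrays A and B lay well above every untreated array, while C lay among them and D lay just above the highest of them. The wild type arrays overlapped at all 3 times. The log2 rise in CHOP-/- cells at 8 h was 0.94 ± 0.26 (1.92-fold, adjusted p = 0.0174), and the difference at 4 h was 0.58 ± 0.26 (adjusted p = 0.382). Wild type differences were 0.40 ± 0.26 at 4 h (adjusted p = 0.73) and -0.15 ± 0.26 at 8 h (adjusted p = 0.779). The rise in CHOP-/- cells was lost without the untreated CHOP-/- array A (0.83, adjusted p = 0.0643) or the 8 h CHOP-/- array C (0.85, adjusted p = 0.0605). From 4 h to 8 h the wild type difference was -0.55 ± 0.26 (adjusted p = 0.327), and it passed with the array letter as a block on these 2 groups alone (adjusted p = 0.00877) but not in the blocked fit of all arrays (adjusted p = 0.315).

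**Figure D1:**
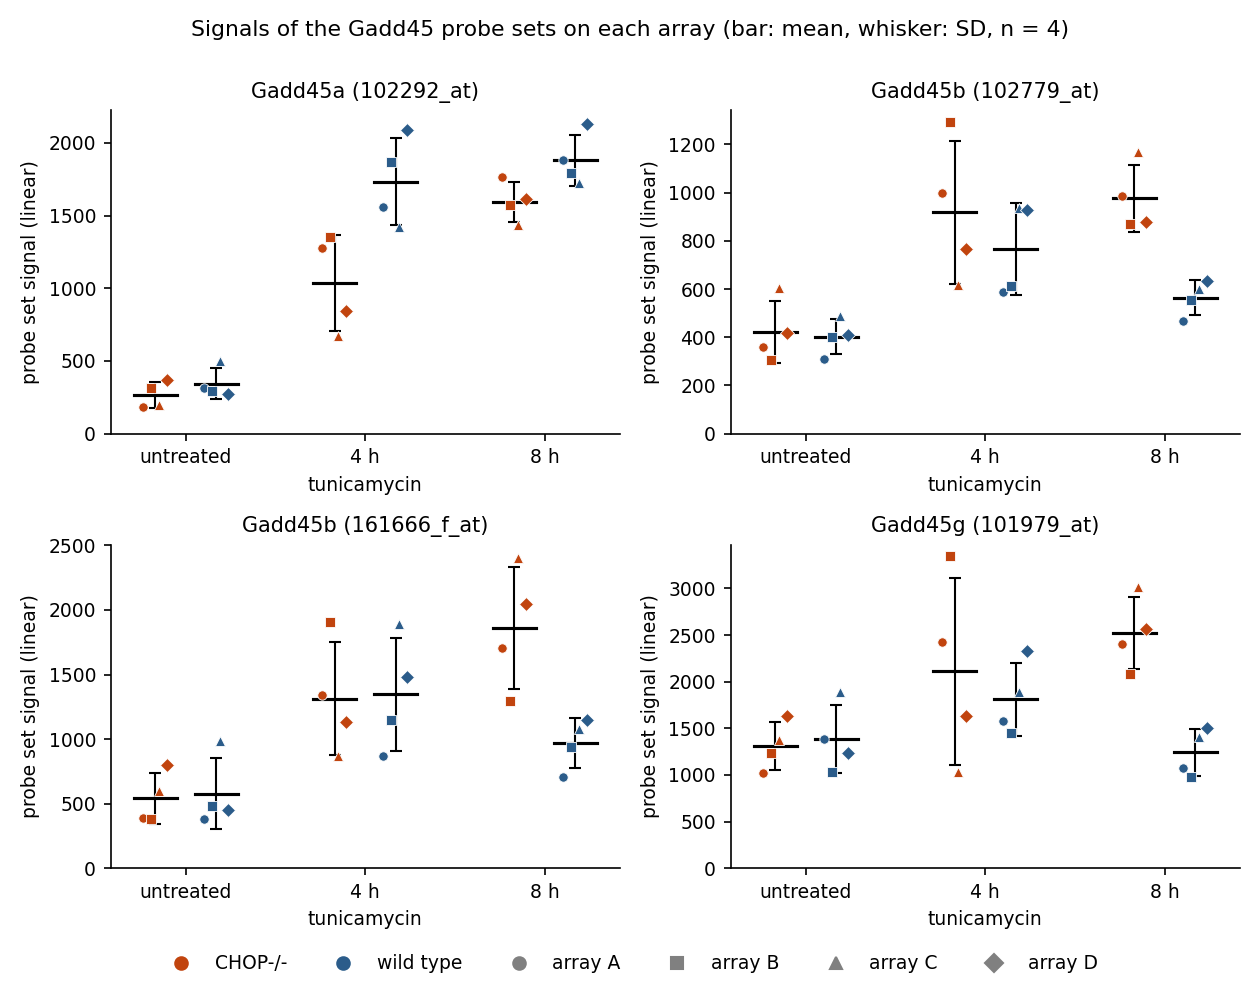
Signal of each Gadd45 probe set (linear scale, y axis) on every array, untreated and after 4 h and 8 h of tunicamycin (x axis), with CHOP-/- cells at the left and wild type cells at the right of each time. Points are arrays, with the symbol giving the letter, bars are means and whiskers are SD (n = 4). Gadd45a was high on all treated arrays of both genotypes, while at 8 h the CHOP-/- arrays of both Gadd45b probe sets and of Gadd45g lay above all wild type arrays.

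Counted over the family at 4 h, 3 of 4 probe sets passed as higher in CHOP-/- cells and 3 of 4 in wild type cells. Over all 7453 probe sets tested, 0.979% were called higher at 4 h in CHOP-/- cells and 1.64% in wild type cells. At 8 h all 4 passed as higher in CHOP-/- cells, against a background of 6.64%, and 1 of 4 in wild type cells, against 8.79%. Without wild type arrays A and B the wild type counts were 1 of 4 at each time, Gadd45a in both. With the array letter as a block in the fit of all arrays, 2 of 4 passed as higher in wild type cells at 8 h. Both Gadd45b probe sets passed there when the blocked fit held the compared groups alone. No Gadd45 probe set passed as lower at either time. Treated and untreated arrays did not overlap for 3 members at 4 h and for all 4 at 8 h in CHOP-/- cells, where 3.1% and 9.38% of tested probe sets were higher without overlap. Among wild type arrays this held for Gadd45a and 102779_at at 4 h, with 4.11% over all probe sets, and for Gadd45a at 8 h, with 11%.

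The genotypes parted at 8 h for Gadd45b and Gadd45g. Gadd45g averaged 2519 ± 386 in CHOP-/- cells and 1241 ± 256 in wild type cells at 8 h (SD, n = 4 each), and no arrays overlapped. The difference was 1.02 ± 0.26 on the log2 scale (2.03-fold, adjusted p = 0.0264). At 102779_at Gadd45b averaged 976.1 ± 139 in CHOP-/- cells and 563.8 ± 72.1 in wild type cells, again without overlap, a log2 difference of 0.77 ± 0.22 (1.71-fold, adjusted p = 0.0486). At 161666_f_at the means were 1861 ± 473 in CHOP-/- cells and 968.9 ± 194 in wild type cells. Its arrays did not overlap either, but the difference of 0.93 ± 0.29 (1.91-fold) did not pass (adjusted p = 0.0769). It passed for this Gadd45b probe set with the array letter as a block (adjusted p = 0.0366), with array weights (1.11, adjusted p = 0.00581) and in a fit of these 2 groups alone (adjusted p = 0.0265). So 2 of 4 members were called higher in CHOP-/- cells at 8 h, against 1.96% of all probe sets, and 3 of 4 did so without overlap of arrays, against 5.26%. An exact permutation test (two-sided) gave p = 0.0286 for each of the 3, the smallest that 4 arrays against 4 allow.

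Both calls between the genotypes, of Gadd45b at 102779_at and of Gadd45g, lay close to the threshold. Leaving out any 1 of the 8 arrays lost the call of 102779_at, at 0.68 to 0.84 (adjusted p 0.0695 to 0.146). That of Gadd45g was lost without the 8 h wild type array A (0.96, adjusted p = 0.0787) or B (0.93, adjusted p = 0.0818), and without the 8 h CHOP-/- array A (1.05, adjusted p = 0.0536), C (0.93, adjusted p = 0.0837) or D (1.01, adjusted p = 0.0543). On the wild type arrays with leukocyte markers, A and B, Gadd45g read 1074.2 and 975 at 8 h, against 1407.5 and 1506.9 on C and D. Without wild type arrays A and B the difference was 0.79 at Gadd45g (adjusted p = 0.273), 0.65 at 102779_at (adjusted p = 0.25) and 0.73 at 161666_f_at (adjusted p = 0.344). Without C and D it was 1.26 (adjusted p = 0.045), 0.90 (adjusted p = 0.0917) and 1.13 (adjusted p = 0.0768). No leukocyte marker was itself called between the genotypes at 8 h. Markers of other cell types were called there. The neural markers, 2 of 8 above the filter, summed to 2975 to 3450 in CHOP-/- cells and 1705 to 2205 in wild type cells, without overlap, and both passed as higher in CHOP-/- cells, Tubb3 by 0.73 (adjusted p = 8.01e-05) and Ncam1 by 0.71 (adjusted p = 0.0262). Untreated, their sums overlapped, at 2739 to 3570 in CHOP-/- cells and 2531 to 3087 in wild type cells. The endothelial markers, 1 of 8 above the filter, summed to 226.2 to 343.3 in CHOP-/- cells and 145.1 to 177.7 in wild type cells at 8 h, and the 1, Flt1, was higher by 1.16 (adjusted p = 0.00202). Of 13 fibroblast markers tested, Pdgfrb was higher by 0.76 (adjusted p = 0.0245) and S100a4 differed by -0.77 (adjusted p = 0.0139), while the list's sums overlapped at 27070 to 37660 in CHOP-/- cells and 24190 to 33840 in wild type cells. Over all probe sets 1.96% were called higher and 1.84% lower between the genotypes at 8 h. Both neural markers, Flt1 and 3 fibroblast markers were also called in wild type cells between 8 h and untreated, as were 15.1% of all probe sets. The part of any of these markers in the Gadd45 differences was not tested.

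Before treatment and at 4 h no member passed between the genotypes, where 0.845% and 1.96% of all probe sets were called. Untreated, the log2 differences of Gadd45b were 0.02 at 102779_at (95% interval -0.44 to 0.47) and -0.08 at 161666_f_at (-0.68 to 0.53), and that of Gadd45g was -0.07 (-0.60 to 0.47). At 4 h they were 0.27 (-0.18 to 0.73), -0.01 (-0.61 to 0.60) and 0.11 (-0.42 to 0.65). The signs of these small differences turned under some alternatives.

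Whether the response itself depended on genotype was tested by subtracting the wild type response from that of CHOP-/- cells. At 8 h this was 1.09 ± 0.37 for Gadd45g (95% interval 0.33 to 1.85), 0.76 ± 0.31 for 102779_at (0.12 to 1.4) and 1.01 ± 0.41 for 161666_f_at (0.15 to 1.87). The unadjusted limma p-values were 0.00683, 0.0228 and 0.023, but over all probe sets the adjusted p-values were 0.976 and, for both Gadd45b probe sets, 0.999. For Gadd45a it was 0.18 ± 0.33 (-0.49 to 0.85, adjusted p = 0.999). A single probe set of the 7453, that of Ddit3, passed this test at 8 h (0.0134%), while 327 had an unadjusted p under 0.05. At 4 h none passed (0%), with 291 at an unadjusted p under 0.05, and the member values were -0.36 for Gadd45a, 0.26 and 0.07 for Gadd45b and 0.18 for Gadd45g. These comparisons share arrays with the tunicamycin responses and genotype differences above.

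**Figure D2:**
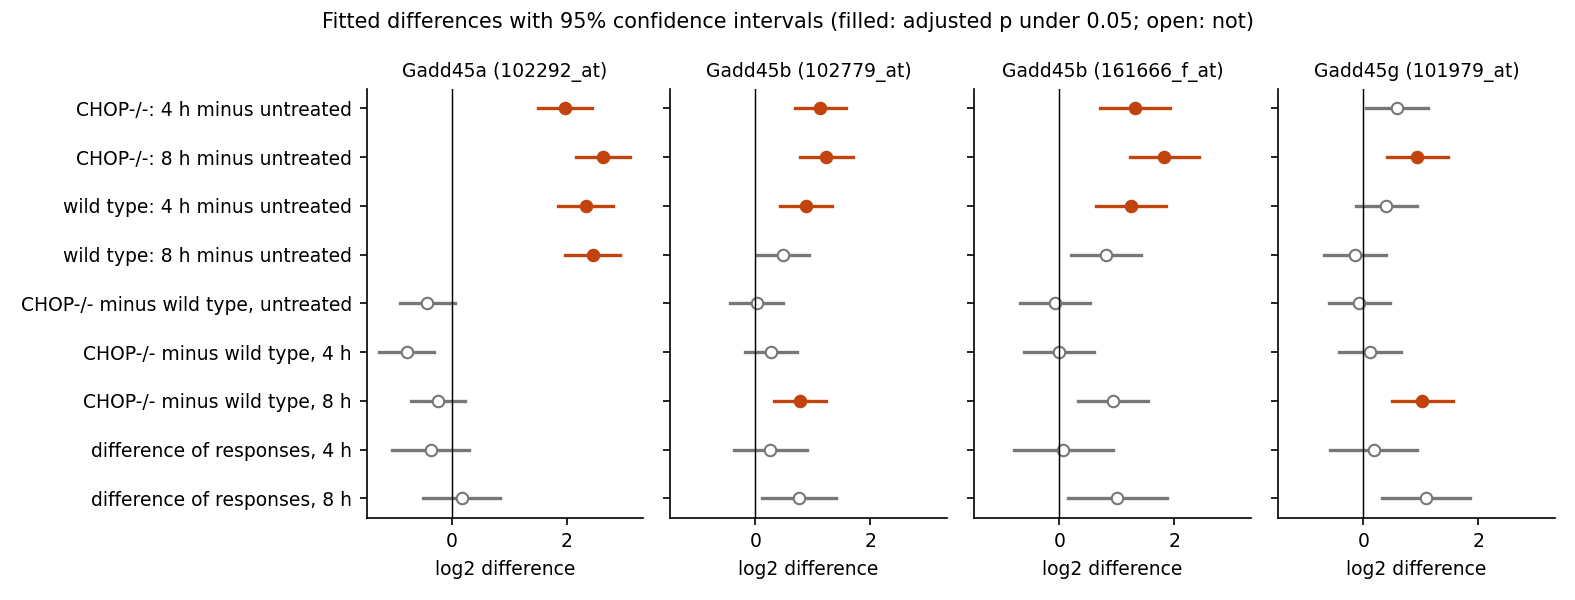
Fitted log2 differences (x axis) with 95% confidence intervals for each Gadd45 probe set, by comparison (y axis), from the limma fit over 24 arrays. Filled points passed an adjusted p of 0.05 and open points did not. Gadd45a passed in the 4 tunicamycin responses alone, and the CHOP-/- minus wild type difference at 8 h passed for 102779_at and Gadd45g.

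**Figure D3:**
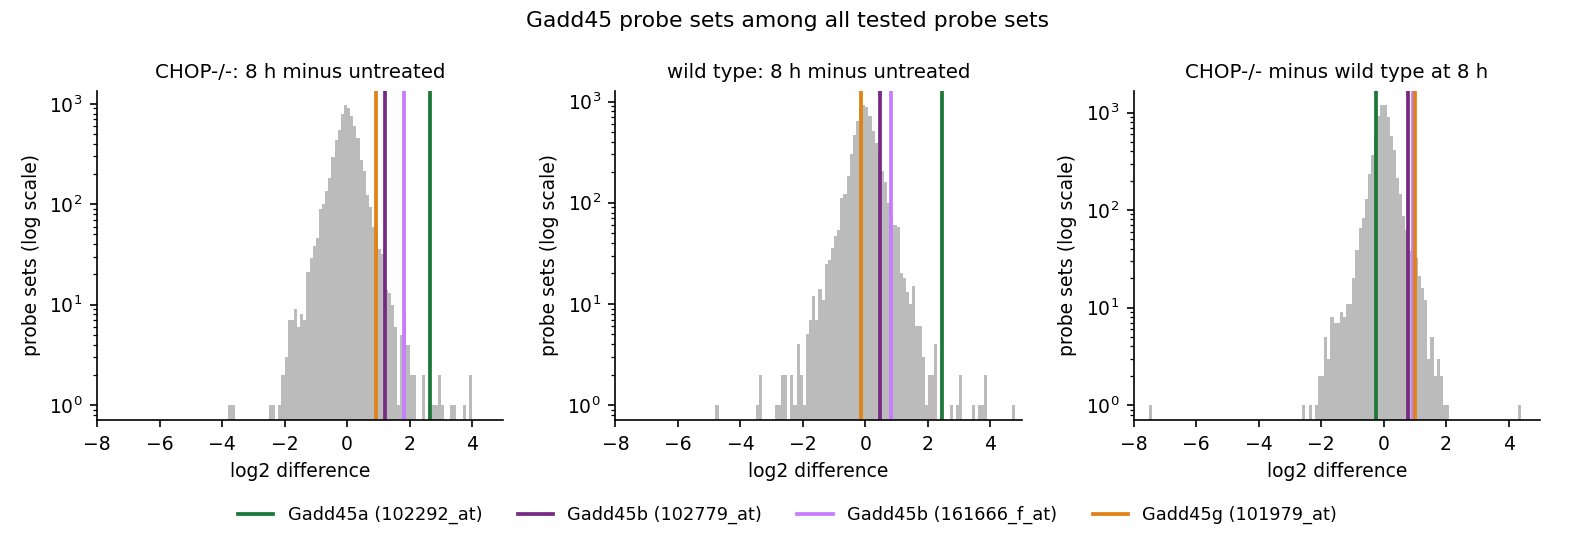
Log2 differences of all 7453 tested probe sets (grey, counts on a log axis), with the Gadd45 probe sets as coloured lines, for both 8 h responses and for the genotypes at 8 h. Gadd45a stood at 2.64 in CHOP-/- cells and 2.46 in wild type cells, and Gadd45g at 0.94 in CHOP-/- cells and -0.15 in wild type cells.

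The order of the group means on the normalized log2 scale differed between members. For Gadd45a it ran from wild type at 8 h through wild type at 4 h, CHOP-/- at 8 h, CHOP-/- at 4 h and untreated wild type to untreated CHOP-/- cells. Neighbours in that order did not overlap in 2 places, between CHOP-/- cells at 8 h and at 4 h and between CHOP-/- cells at 4 h and untreated wild type cells (exact permutation p = 0.0286 each). For Gadd45g it ran from CHOP-/- at 8 h through CHOP-/- at 4 h, wild type at 4 h, untreated wild type and untreated CHOP-/- cells to wild type at 8 h, and all neighbours overlapped. For Gadd45b both probe sets had CHOP-/- cells at 8 h highest and the untreated groups lowest, and all neighbours overlapped.

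The arrays of CHOP-/- cells at 4 h differed among themselves in all members. On arrays A and B, Gadd45a lay 0.34 and 0.43 above its group mean on the log2 scale, against -0.55 and -0.23 on C and D. Gadd45g had a coefficient of variation of 47.6% in this group, against 15.3% in CHOP-/- cells at 8 h. The same arrays A and B were the higher ones for both Gadd45b probe sets. Across all 24 arrays the Gadd45b probe sets correlated at r = 0.93, and at 0.81 after group means were removed. Gadd45g correlated with them at 0.80 and 0.79 (0.72 and 0.75 after removal), and with Gadd45a at 0.45 (0.67 after removal). Gadd45a and Gadd45b gave 0.68 and 0.78 over all arrays and 0.28 and 0.50 after removal. These are descriptions over arrays that share one normalization.

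For each Gadd45 probe set all other genes, the other family members included, were ranked by the likeness of their pattern, as Pearson r over the same 24 arrays and 5687 genes. Each ranked gene stood by its probe set with the highest mean, which for Gadd45b is 161666_f_at. The probe set 102779_at was therefore not ranked, and it correlated with Gadd45g at 0.80. Closest to Gadd45a were Piga, an enzyme of GPI anchor synthesis (0.961), the clock factor Arntl (0.946), Herpud1 of ER-associated degradation (0.942), Ppp1r15a, a regulatory subunit of the eIF2alpha phosphatase (0.933), and the pseudokinase gene Trib3 (0.926). The most opposite were the sialyltransferase St6gal1 (-0.928), Cbx6 (-0.859) and the actin-associated Synpo (-0.840). Closest to Gadd45b at 102779_at were Ddit4, an inhibitor of the mTOR kinase (0.891), the ubiquitin ligase Siah2 (0.867), the zinc finger genes Zfp105 (0.845) and Zfp110 (0.839), and Trim13, a ubiquitin ligase of the ER membrane (0.833). At 161666_f_at they were Clk4, a kinase of splicing factors (0.865), Rab33b (0.857), Zfp110 (0.855), Zfp105 (0.851) and Ddit4 (0.849). The most opposite to 102779_at were Adm (-0.778), Fbxo21 (-0.774) and 2610001J05Rik (-0.766), and those to 161666_f_at were Elovl5 (-0.776), Macroh2a1 (-0.775) and Fbxo21 (-0.771). Closest to Gadd45g was Gadd45b (161666_f_at, 0.790), followed by Trim13 (0.780), the ephrin ligand Efnb2 (0.770), Ice1 (0.749) and the ubiquitin ligase Rnf19a (0.729). Its most opposite genes, Adh5 (-0.771), Tmem97 (-0.749) and Twf2 (-0.748), stood at -0.308, -0.507 and -0.642 when each array was instead centred on its median. Macroh2a1 stood at -0.392 against 161666_f_at of Gadd45b with that centring.

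Among direct partners of GADD45 proteins 2 were called after 8 h of tunicamycin, and both were lower. Of 7 tested, Pcna, the replication clamp, fell by 0.83 on the log2 scale in CHOP-/- cells at 8 h (adjusted p = 0.000292) and by 0.57 in wild type cells (adjusted p = 0.00721). Cdk1, the kinase that drives entry into mitosis, fell by 0.85 in CHOP-/- cells at 8 h (adjusted p = 0.00758). These were 2 of 7 called lower in CHOP-/- cells and 1 of 7 in wild type cells, against 5.9% and 6.28% of all probe sets. No partner was called higher, against 6.64% and 8.79%. For 7 genes, the 1 lower call in wild type cells and the absence of higher calls are near the background. The list's median log2 difference was -0.06 in CHOP-/- cells and -0.25 in wild type cells, against 0.00 and -0.01 over all probe sets. Map3k4, the kinase that GADD45 proteins activate, was higher by 0.69 in CHOP-/- than in wild type cells at 8 h (adjusted p = 0.011). It was 1 of 7 called there, where 1.96% of all probe sets were called higher. The Map3k4 difference was 0.47 untreated (adjusted p = 0.254) and 0.35 at 4 h (adjusted p = 0.287), which did not pass. Its response difference at 8 h was 0.22 ± 0.22 (adjusted p = 0.999), so a difference in response was not shown. Without wild type arrays A and B neither the fall of Pcna in wild type cells nor the Map3k4 difference at 8 h passed.

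Among 15 tested genes of the p38 and JNK cascade, 1 was called at 8 h in each genotype, and it was lower, as were 5.9% of all probe sets in CHOP-/- cells and 6.28% in wild type cells. It was Dusp1, a phosphatase that switches these kinases off, which had differences of -1.05 in CHOP-/- cells (adjusted p = 0.00209) and -1 in wild type cells (adjusted p = 0.00255). The wild type call was lost without arrays A and B. Of 18 other p53 targets tested, none was called higher at 4 h or 8 h in either genotype, and 3 fell at 8 h in each. Over all probe sets 6.64% were called higher and 5.9% lower at 8 h in CHOP-/- cells, and 8.79% higher and 6.28% lower in wild type cells, so the absence of higher calls among 18 genes is near the background. In CHOP-/- cells they were Ei24 (-0.65), the apoptosome gene Apaf1 (-0.56) and the antiproliferative Btg2 (-0.86), and in wild type cells Btg2 (-1.24), Apaf1 (-0.58) and Ccng1 (-0.46). When each array was centred on its median 1 target was called lower in CHOP-/- cells, and without wild type arrays A and B 1 was called lower in wild type cells.

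Of 20 tested genes of the PERK-ATF4 branch and of CHOP, 10 rose and none fell in CHOP-/- cells at 8 h. In wild type cells 15 rose and none fell, Ddit3 itself among these. Ddit3 was counted among the 20 in both genotypes, passed the filter through its wild type arrays, and read 6.9 to 40.4 on CHOP-/- arrays. Its part in the difference between these counts was thus set by the genotype. The share called higher over all probe sets was 6.64% in CHOP-/- cells and 8.79% in wild type cells. In wild type cells 10 rose when arrays A and B were left out. The list's median log2 difference was 0.55 in CHOP-/- cells and 0.84 in wild type cells. Atf4, the factor of this branch, rose by 1.06 ± 0.10 in CHOP-/- cells and by 0.89 ± 0.10 in wild type cells at 8 h. Ppp1r15a rose by 1.45 ± 0.20 in CHOP-/- cells and by 2.02 ± 0.20 in wild type cells, and it was lower in CHOP-/- than in wild type cells at 8 h by a log2 difference of -0.96 (adjusted p = 0.00524). Neither its untreated difference of -0.39 (adjusted p = 0.619) nor its response difference at 8 h of -0.58 ± 0.28 (adjusted p = 0.999) passed. Between the genotypes at 8 h 4 of the 20 were called lower, Ddit3 among them, and 0 higher. Over all probe sets 1.84% were called lower. Without wild type arrays A and B 2 were called lower. Trib3 rose by 1.72 ± 0.27 in CHOP-/- cells and by 2.28 ± 0.27 in wild type cells. At 4 h 7 of the list rose in CHOP-/- cells, and 3 did so with median centring and 4 with no filter. In wild type cells 10 rose at 4 h, and 5 did so without wild type arrays A and B. At 4 h 0.979% of all probe sets were called higher in CHOP-/- cells and 1.64% in wild type cells.

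Genes of G2 and mitosis belong to the step that GADD45 proteins are known to delay. At 8 h 11 of 24 tested fell in CHOP-/- cells and 2 of 24 in wild type cells, against 5.9% and 6.28% of all probe sets called lower, so that the wild type count is near the background. None was called higher in either genotype. In CHOP-/- cells the checkpoint kinase Bub1 fell by 1.37 (adjusted p = 0.000442), the mitotic kinase Aurka by 0.87 (adjusted p = 0.000938), Mad2l1 by 0.94 (adjusted p = 0.00147) and Kif22 by 0.62 (adjusted p = 0.00135). In wild type cells Birc5 fell by 0.84 (adjusted p = 0.00386) and Cks2 by 0.35 (adjusted p = 0.0466), and no gene of the list passed without arrays A and B. No gene of the list passed the test of the response difference at 8 h, so a difference in response between the genotypes was not shown. Between the genotypes at 8 h, Aurka (-0.69), Bub1 (-0.97), Mad2l1 (-0.67) and Kif22 (-0.44) were lower and Kif20a (1.23) was higher in CHOP-/- cells. Over all probe sets 1.84% were called lower and 1.96% higher. Kif20a was already higher in untreated CHOP-/- cells, by 1.56 (adjusted p = 0.000158), and fell there by 0.75 with 8 h of tunicamycin. The untreated differences of Aurka (0), Bub1 (-0.08), Mad2l1 (-0.10) and Kif22 (-0.12) did not pass. With wild type arrays A and B left out, none of the list was called lower between the genotypes at 8 h and 1 gene was called higher.

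**Figure D4:**
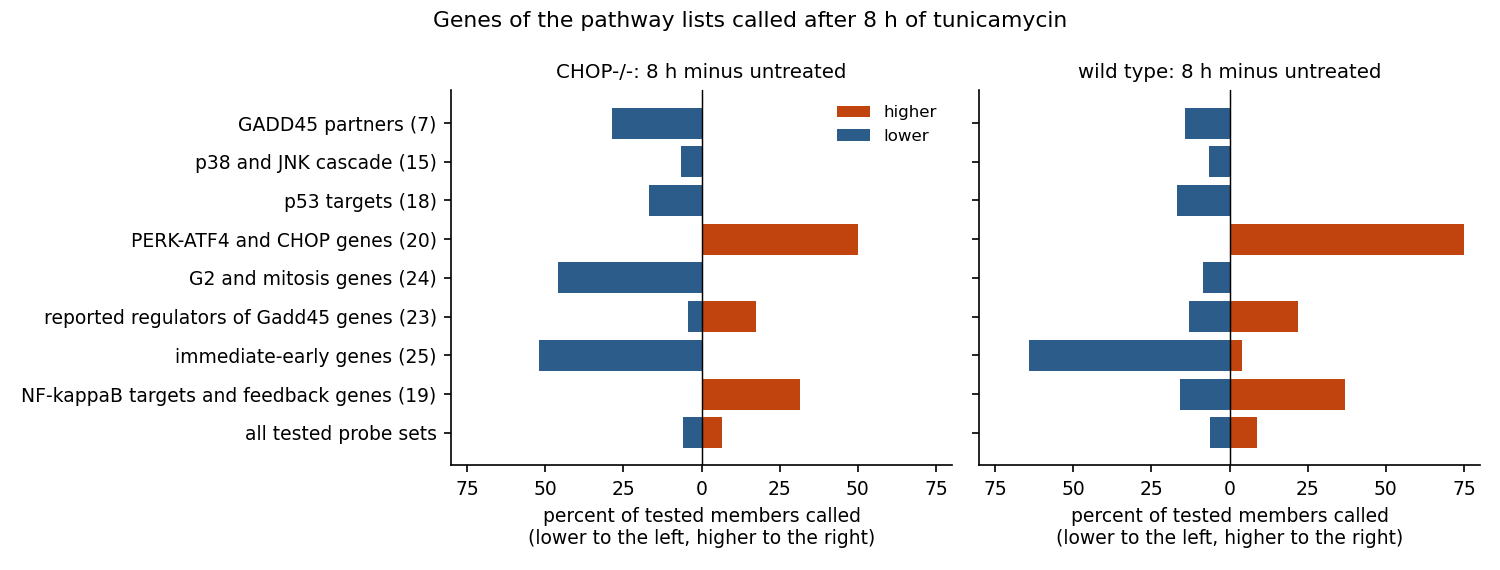
Percent of the tested members of each gene list (number in parentheses) called lower (left) or higher (right) after 8 h of tunicamycin, in CHOP-/- cells (left panel) and wild type cells (right panel), with all tested probe sets as the lowest bar. PERK-ATF4 and CHOP genes, Ddit3 among them, reached 50% higher in CHOP-/- cells and 75% in wild type cells. No GADD45 partner (7 tested) and no other p53 target (18 tested) was called higher, which is near the share over all probe sets.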

How the data were processed

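Total RNA of 24 samples was measured on oligonucleotide arrays. The authors deposited a linear signal intensity for each probe set, judged from the values, and each array had a trimmed mean of 250.1 to 250.2 after 2% of probe sets were removed at each end. The software that made and scaled them: not given in the sources used here. Probe sets were named through the array's gene table, and sequences came from RefSeq tables for GRCm38.p6. A pseudocount of 5.7, the 20th percentile of signals, was added, log2 values were quantile normalized, and 7453 of 12422 non-control probe sets with a mean log2 above 5.07 (signal 27.8, the 40th percentile) were kept. All 4 Gadd45 probe sets passed this filter, with means above those of 86.7% to 95.6% of probe sets. A model of 6 group means was fitted to all 24 arrays with limma 3.58.1 (R 4.3.3, intensity trend, residual degrees of freedom 18), with 11 contrasts, each adjusted by the Benjamini-Hochberg method at 0.05, two-sided. Single values were also tested by exact permutation of 4 arrays against 4. In simulated data for the wild type 8 h comparison (7453 probe sets) 81% of changes of 1 log2 unit and 94% of changes of 2 were recovered. The simulated noise was independent between arrays, without deviations shared by a letter. Changes were placed in the wild type 8 h group alone, so these shares do not cover the genotype or response differences. For arrays their number, 4 per group, limits the precision.

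The members and gene lists were chosen with earlier results of these data known. Genes were named by rule: the family, Ddit3, Ppp1r15a, Atf4 and Trib3, up to 4 called members of a list with the smallest adjusted p, and the 5 most and 3 least alike genes of each Gadd45 probe set. A gene of a list stood by its probe set with the highest mean. Whether array letters pair the samples was read from the correlation of deviations from group means. For each letter it exceeded 0.1 between the wild type groups (0.23 to 0.616) and between CHOP-/- and wild type cells at 8 h (0.271 to 0.539), but for CHOP-/- cells at 4 h and untreated it was 0.431, -0.331, -0.229 and 0.375. Blocked values stand beside results whose call they change in the paired groups. Alternatives were no further normalization, median centring, pseudocounts, filters, 1 probe set per gene, array weights, no trend, the block, the contrast's groups alone and leaving out each array. Blocks on the contrast's groups alone and fits without wild type arrays A and B, or C and D, were added after the data had been seen.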

Additional observations from a re-analysis of the deposited data

How the results depend on the processing

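Over 44 results on the members and 38 alternatives, 997 values were computed, of which 906 kept their direction and side of the threshold, 50 no longer passed, 13 newly passed and 28 changed sign. The 4 responses of Gadd45a and the 8 h rises of both Gadd45b probe sets in CHOP-/- cells passed in every alternative that gave a value. With median centring Gadd45b at 102779_at gave 0.88 at 4 h in wild type cells (adjusted p = 0.115), -0.02 between untreated genotypes and 0.77 between genotypes at 8 h (adjusted p = 0.124), 161666_f_at gave 1.29 at 4 h in CHOP-/- cells (adjusted p = 0.0772) and 1.24 in wild type cells (adjusted p = 0.0792), and Gadd45g gave 1.01 between genotypes at 8 h (adjusted p = 0.0591). With no filter 102779_at gave 0.87 at 4 h in wild type cells (adjusted p = 0.0552) and 0.77 between genotypes at 8 h (adjusted p = 0.0697), and with no intensity trend 0.77 (adjusted p = 0.0574). With array weights 161666_f_at gave 0.80 at 8 h in wild type cells (adjusted p = 0.0214), and between genotypes 0.03 at 4 h and 1.11 at 8 h (adjusted p = 0.00581). With the replicate block it gave 0.81 (adjusted p = 0.0333) and 0.93 (adjusted p = 0.0366) for the same 8 h results, and the block on all arrays changed no other call. Fitted on the contrast's groups alone, 102779_at gave 1.13 at 4 h in CHOP-/- cells (adjusted p = 0.129) and 0.87 in wild type cells (adjusted p = 0.0873), and 161666_f_at gave 1.31 in CHOP-/- cells (adjusted p = 0.106), 1.24 in wild type cells (adjusted p = 0.0903) and 0.93 between genotypes at 8 h (adjusted p = 0.0265). Adding the block to that fit gave 0.47 (adjusted p = 0.0111) and 0.81 (adjusted p = 0.00722) for the Gadd45b probe sets at 8 h in wild type, 1.13 (adjusted p = 0.27) and 1.31 (adjusted p = 0.207) at 4 h in CHOP-/- cells, where letters did not pair, 0.93 for 161666_f_at between genotypes at 8 h (adjusted p = 0.00467) and -0.55 for Gadd45g from 4 h to 8 h in wild type cells (adjusted p = 0.00877). Without wild type arrays A and B, Gadd45b gave 1.02 and 1.28 at 4 h in wild type cells, and at 102779_at -0.15, -0.04 and 0.65 between genotypes untreated, at 4 h and at 8 h, while Gadd45g gave -0.07 at 4 h and 0.79 at 8 h. Without wild type arrays C and D, Gadd45b gave 0.73 and 1.20 at 4 h in wild type cells, 0.90 at 102779_at between genotypes at 8 h, and 0.23 untreated and 0.34 at 4 h at 161666_f_at, and Gadd45g gave 0.10 untreated. Leaving out 1 array at a time, Gadd45a gave 0.48 to 0.81 for 8 h against 4 h in CHOP-/- cells, -0.92 to -0.60 between genotypes at 4 h and -0.01 to 0.36 for the response difference at 8 h. Gadd45b at 102779_at gave 0.74 to 0.99 at 4 h in wild type cells, -0.06 to 0.27 for 8 h against 4 h in CHOP-/- cells, and -0.17 to 0.13 untreated and 0.68 to 0.84 at 8 h between genotypes. At 161666_f_at it gave 1.11 to 1.52 at 4 h in CHOP-/- cells, 1.08 to 1.52 at 4 h and 0.65 to 1.09 at 8 h in wild type cells, -0.28 to 0.20 untreated and -0.21 to 0.17 at 4 h between genotypes, and -0.21 to 0.28 for the response difference at 4 h. Gadd45g gave 0.83 to 1.06 at 8 h in CHOP-/- cells, -0.19 to 0.08 untreated, -0.17 to 0.41 at 4 h and 0.93 to 1.13 at 8 h between genotypes, and -0.11 to 0.48 for the response difference at 4 h. The causes were not tested. Counts of called probe sets over the whole array moved more. At 4 h 102 were called in CHOP-/- cells (11 to 135 over the alternatives) and 145 in wild type cells (24 to 217), and at 8 h 935 in CHOP-/- cells (583 to 1242) and 1123 in wild type cells (303 to 1960). Between 8 h and 4 h there were 373 (97 to 473) in CHOP-/- and 269 (22 to 465) in wild type cells, and between genotypes 63 untreated (10 to 101), 146 at 4 h (47 to 241) and 283 at 8 h (132 to 761). The response difference at 8 h had 1 (0 to 6). The number of arrays limits the differences near the threshold. All members passed the filter on mean signal, which is a rank among probe sets and does not measure signal over background.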

Other observations

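Of 23 tested genes reported to regulate the Gadd45 genes, 4 were called higher and 1 lower in CHOP-/- cells at 8 h, and 5 higher and 3 lower in wild type cells, where 2 were called without wild type arrays A and B. Over all probe sets 6.64% were called higher and 5.9% lower in CHOP-/- cells at 8 h, and 8.79% higher and 6.28% lower in wild type cells. The 1 lower call in CHOP-/- cells is near that background. In CHOP-/- cells Atf4 was higher by 1.06 on the log2 scale, Foxo3, a forkhead factor of stress responses, by 0.81 (adjusted p = 0.00275) and Atf2 by 0.76 (adjusted p = 0.04), while the immediate-early factor Egr1 fell by 2.06 (adjusted p = 0.00325). In wild type cells Atf4 was higher by 0.89, and the AP-1 subunit Jun fell by 1.36 (adjusted p = 0.000403) and Egr1 fell by 1.66 (adjusted p = 0.0149).

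Of 25 immediate-early genes tested, 13 fell and none rose in CHOP-/- cells at 8 h, and 16 fell and 1 rose in wild type cells, where 10 fell without wild type arrays A and B. Nr4a1, an orphan nuclear receptor, fell by 3.76 in CHOP-/- cells and fell by 4.73 in wild type cells. Of 19 tested NF-kappaB targets and feedback genes, 6 rose and none fell in CHOP-/- cells at 8 h, and 7 rose and 3 fell in wild type cells, where 3 were called without wild type arrays A and B. Birc2, an inhibitor of apoptosis, rose by 1.33 in CHOP-/- cells and by 0.99 in wild type cells, and Traf2, an adaptor of TNF receptors, by 0.79 in CHOP-/- cells and by 1 in wild type cells. The shares over all probe sets that stand against the counts of both lists are the same, 6.64% higher and 5.9% lower in CHOP-/- cells and 8.79% higher and 6.28% lower in wild type cells. The limma fit and thresholds are those of the other comparisons.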
